A study of Arabidopsis thaliana with 44 samples.

Results

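The comparison described here sets shoot apices of ago5ago9 plants, which lack both AGO5 and AGO9, against shoot apices of ago5 plants, which lack AGO5 alone, and so asks what loss of AGO9 adds where AGO5 is already lost. Its 8 libraries, 4 of each genotype, were taken by their labels from the 44 libraries of the series. Both groups are labelled as the Col-0 ecotype, and their apices were collected 7 days after germination from seedlings grown on soil in days of 16 h light and 8 h dark. The labels name no allele for either gene, nor whether a replicate is 1 apex or a pool, 1 plant or several, so p-values measure the spread between these libraries, which may be technical. The libraries were made with Smart-seq3, which copies whole transcripts into cDNA, and no wild-type library entered the test. The series also holds ago4, ago9, ago4ago9, ago4ago5ago9 and ddm1 mutants with 4 libraries each and 2 wild types, wt col-0 and wt21, with 8 each. Of these, ago4ago9 and ago4 serve below as the most similar comparison, and the others only as levels.

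ARGONAUTE proteins hold small RNAs and use them to find matching transcripts or genomic sites. AGO9 belongs to the AGO4 clade, which guides RNA-directed DNA methylation, and it is best known from ovules, where it acts from the cells around the germline. AGO5 belongs to the AGO1 clade and is known chiefly from reproductive tissue. Loss of a member of the methylation pathway can raise transposable elements or genes that lie beside them.

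Library totals were 5507547 to 8367140 counts in ago5ago9 and 4474807 to 6934795 in ago5, within the 4474807 to 10620084 of the series. Replicates of a group correlated at 0.96 to 0.977 across features on the log2 CPM scale (CPM, a count relative to its library total, the total being scaled by library composition), and no pair was identical. Chloroplast and mitochondrial genes took 5.23% to 13.4% of counts in ago5ago9 and 3.28% to 11.0% in ago5, with replicate 3 highest in each group. The ribosomal RNA gene AT3G41768 took 12.8% of counts in ago5ago9 replicate 3, against 4.55% to 5.35% in the other ago5ago9 libraries and 2.22% to 7.61% in ago5. Of the apex markers, STM stood at 2.78 to 6.06 CPM and KNAT1 at 4.11 to 8.42 CPM over the 8 libraries, while WUS, CLV3 and CUC2 did not exceed 0.935 CPM. The 22 nuclear photosynthesis genes summed to 146400 to 219400 CPM in ago5ago9 and 173300 to 211700 CPM in ago5, so transcripts of green tissue took a large share of both. Root markers stayed at or below 2.56 CPM in sum, with 4 of 6 at 0 in all 8 libraries. Floral organ markers stayed at or below 4.95 CPM in sum, with AP3 at 0. In such bulk samples fewer cells of a type and less RNA per cell cannot be told apart.

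The targeted genes were read first. AGO9 had 0 counts in each of the 4 ago5ago9 libraries and 6, 3, 8 and 1 counts in ago5 replicates 1 to 4. A count of 0 allows up to 3 counts, which is 0.362 to 0.608 CPM in these ago5ago9 libraries, so AGO9 was at or near the limit of detection also where the gene is intact. AGO5 had 0 counts over the ago5ago9 group and 1 over the ago5 group, beside 10 over the 8 wild-type libraries with replicate numbers 1 to 4 and 20 over the 8 with numbers 5 to 8. AGO4, the abundant member of the AGO9 clade, had 25.1, 23.8, 28.7 and 27.4 CPM in ago5ago9 and 28.04, 22.8, 25.6 and 24.9 CPM in ago5, and the groups overlapped. DDM1, a chromatin remodeller, was likewise at 8.93 ± 1.05 CPM and 9.03 ± 1.98 CPM (SD, n = 4 each).

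Few transcripts passed the test between the genotypes once p-values were adjusted. Of 14664 features tested with edgeR's quasi-likelihood test, 52 were called at an adjusted p under 0.05, which is 0.355% of those tested. Higher in ago5ago9 were 17 of them (0.116%) and lower were 35 (0.239%). In 51 of the 52 the 4 ago5ago9 libraries lay wholly to 1 side of the 4 ago5 libraries, a pattern met by 825 of all features tested (5.63%), 3.08% lower in ago5ago9 and 2.55% higher. An unadjusted p under 0.05 was found for 10.5% of the features tested, the share against which such counts for single lists are to be read. Of the 35 lower features 9 were on a list of phenylpropanoid and flavonoid genes and 2 on a list of light genes, both described below. Leaving out 1 library moved the count: it was 3 without ago5 replicate 1, 14 without ago5 replicate 2, 33 without ago5 replicate 3, 10 without ago5ago9 replicate 1, 18 without ago5ago9 replicate 2, 96 without ago5ago9 replicate 4 and 139 without ago5ago9 replicate 3. Each of the 52 kept its direction in all 8 of these fits, the one without ago5 replicate 4 included, and 3 stayed called in all 8: AT1G56720, NEET and RHM1.

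**Figure D1:**
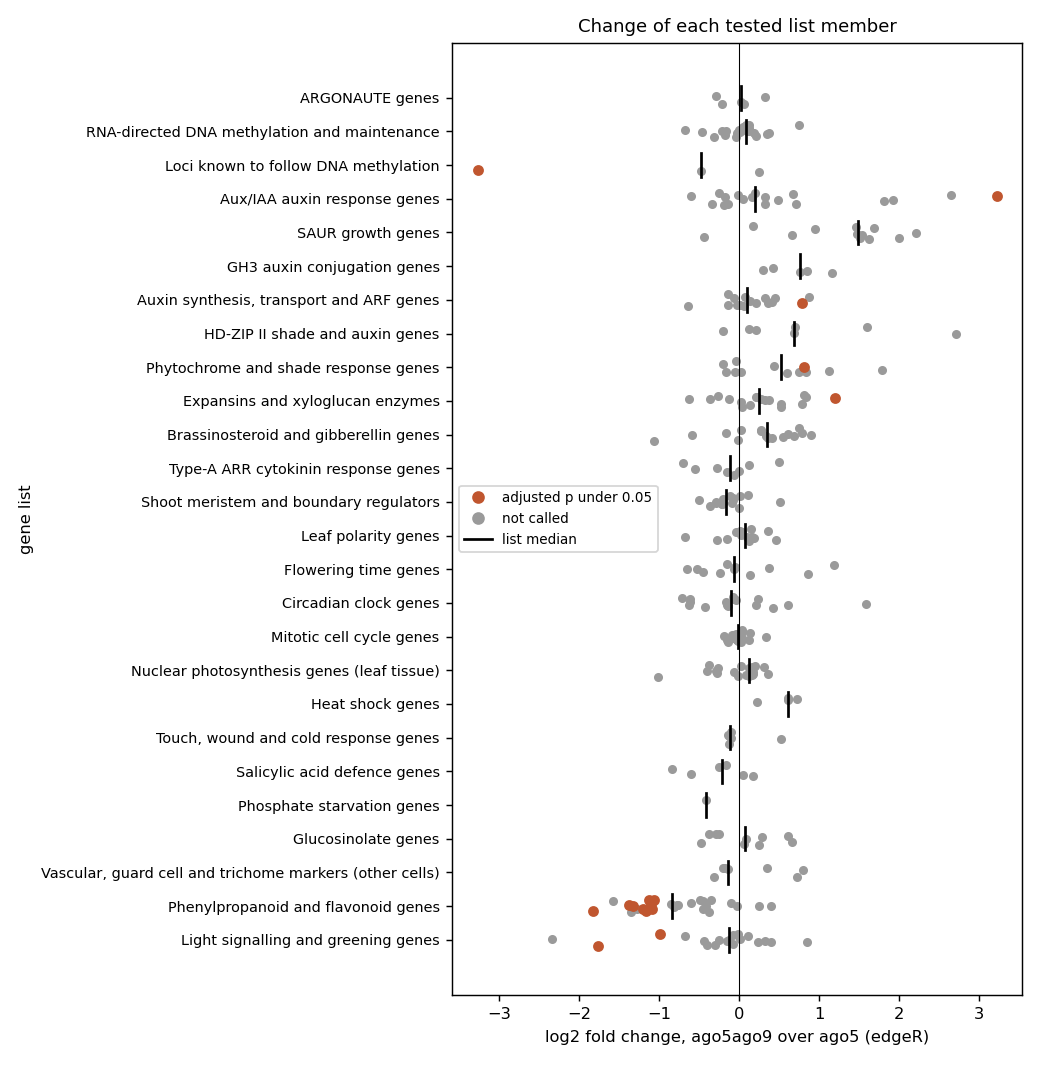
Each point is 1 tested gene of a named list, placed by its log2 fold change (ago5ago9 over ago5); orange points have an edgeR adjusted p under 0.05, grey points do not, and the black bar is the list median. The phenylpropanoid and flavonoid list lies mostly left of 0 with 9 called members, and most SAUR genes lie right of 0 with none called.

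Of the genes for making flavonoids, the ultraviolet screens and pigments of plants, 9 were lower in ago5ago9. Of 36 listed phenylpropanoid and flavonoid genes 28 were tested. Higher calls numbered 0, and 0.239% of all features tested were called lower. The fold change was below 0 in 26 of the 28, the ago5ago9 libraries lay wholly below the ago5 libraries in 19 (3.08% over all features), and the median log2 fold change was -0.84, against 0.003 over all features tested. This list was drawn up after the values had been seen, so its counts are a description. Calls on the list numbered 0 with all 44 libraries in the model, 1 without ago5 replicate 1, 2 without ago5ago9 replicate 1, 4 without ago5 replicate 2, 5 without ago5ago9 replicate 2 and 14 without ago5ago9 replicate 3. The 9 called genes span the pathway from its entry to the finished sugar conjugates, and their CPM in each library is plotted below this paragraph.

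**Figure D2:**
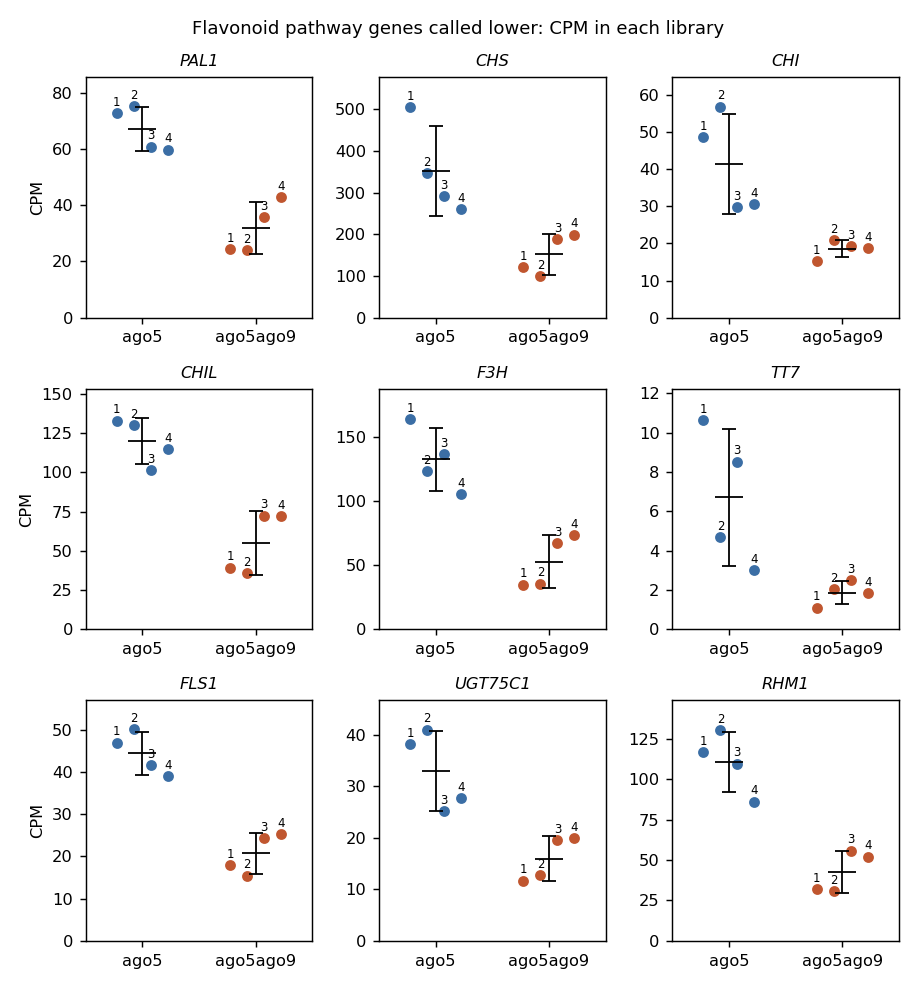
CPM of the 9 called flavonoid pathway genes in each of the 4 ago5 (blue) and 4 ago5ago9 (orange) libraries, with replicate numbers beside the points and mean ± SD in black; vertical axes start at 0. In every panel the 4 ago5ago9 libraries lie below the 4 ago5 libraries, and ago5ago9 replicates 1 and 2 are the lowest in 7 of the 9.

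PAL1, phenylalanine ammonia-lyase at the entry to the pathway, had 24.5, 24.0, 35.8 and 43.0 CPM in ago5ago9 and 72.7, 75.1, 60.8 and 59.7 CPM in ago5. It fell by 1.09 ± 0.17 on the log2 scale (SE; edgeR adjusted p = 0.0125). CHS, chalcone synthase, which commits the route to flavonoids, had 122, 99.5, 188 and 199 CPM in ago5ago9 and 504, 347, 292 and 261 CPM in ago5. All 4 double-mutant libraries were below every ago5 library, and CHS was 2.31-fold lower (edgeR adjusted p = 0.0280). CHI, the chalcone isomerase that closes the ring, stood at 15.3, 20.9, 19.4 and 18.7 CPM against 48.6, 56.7, 29.7 and 30.5 CPM, and was 2.23-fold lower (edgeR adjusted p = 0.0142). CHIL, an isomerase-like protein that aids chalcone synthase, went from 120 ± 14.6 CPM in ago5 to 54.9 ± 20.2 CPM in ago5ago9 (SD, n = 4; edgeR adjusted p = 0.0210).

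The enzymes after the first ring showed the same order. F3H, flavanone hydroxylase, had 34.9, 35.6, 67.3 and 73.4 CPM in ago5ago9 and 164, 124, 137 and 106 CPM in ago5, and was 2.52-fold lower (edgeR adjusted p = 0.0128). FLS1, flavonol synthase, had 17.9, 15.4, 24.4 and 25.4 CPM in ago5ago9 and 46.9, 50.05, 41.6 and 39.0 CPM in ago5, and was 2.16-fold lower (edgeR adjusted p = 0.0105). TT7, the hydroxylase that turns kaempferol-type into quercetin-type flavonoids, was low throughout, at 1.11 to 2.51 CPM in ago5ago9 and 3.03 to 10.7 CPM in ago5 (edgeR adjusted p = 0.0478). Limma voom gave it an adjusted p of 0.122. Of the genes for sugar conjugation, RHM1, which makes the rhamnose donor, fell from 117, 130, 110 and 86.1 CPM to 31.9, 30.9, 55.9 and 52.1 CPM (edgeR adjusted p = 0.00607). UGT75C1, an anthocyanin glucosyltransferase, fell from 33.0 ± 7.72 to 16.0 ± 4.33 CPM (SD, n = 4; edgeR adjusted p = 0.0255). AT1G06000, a flavonol rhamnosyltransferase gene that was not on the list, was also called, at 28.6 ± 6.80 CPM in ago5ago9 against 51.0 ± 9.76 CPM in ago5 (edgeR adjusted p = 0.0445).

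Other members had the same direction without passing the test. DFR, at the start of the anthocyanin branch, had 15.01, 13.9, 35.6 and 31.8 CPM in ago5ago9 and 62.4, 51.6, 37.3 and 50.4 CPM in ago5 (edgeR adjusted p = 0.0793). The flavonol glucosyltransferase gene UGT78D2 was at an adjusted p of 0.0589 by edgeR and the anthocyanin acyltransferase gene 5MAT at 0.0517. The pathway's regulators gave no call. MYB111, an activator of flavonol genes, had 0.604 to 2.53 CPM in ago5ago9 and 2.80 to 4.55 CPM in ago5 (edgeR adjusted p = 0.211). The log2 fold change of TTG1, part of the anthocyanin activator complex, was 0.25 (edgeR adjusted p = 0.6997).

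Light-regulated flavonoid genes are known for G-boxes, the site of bZIP and bHLH factors. The upstream sequences of CHS, F3H, CHIL and FLS1 are shown. They include the only 3 of the 9 called flavonoid genes with a G-box in this window, so they do not stand for the 9. Each sequence holds the 250 bases before the RefSeq gene start (TAIR10.1), read in the direction of the gene. Capitals mark the G-box CACGTG and the MYB-type element ACCTANC on either strand, and no marked motifs overlap.
CHS: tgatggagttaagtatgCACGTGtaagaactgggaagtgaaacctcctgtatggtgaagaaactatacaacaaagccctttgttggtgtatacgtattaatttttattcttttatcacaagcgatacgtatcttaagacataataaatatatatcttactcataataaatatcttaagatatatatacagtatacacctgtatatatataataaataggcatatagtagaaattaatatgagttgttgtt
CHIL: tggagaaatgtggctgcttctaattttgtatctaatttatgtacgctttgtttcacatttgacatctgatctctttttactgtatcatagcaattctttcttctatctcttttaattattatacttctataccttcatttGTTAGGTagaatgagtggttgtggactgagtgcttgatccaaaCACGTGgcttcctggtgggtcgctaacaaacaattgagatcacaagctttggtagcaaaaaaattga
F3H: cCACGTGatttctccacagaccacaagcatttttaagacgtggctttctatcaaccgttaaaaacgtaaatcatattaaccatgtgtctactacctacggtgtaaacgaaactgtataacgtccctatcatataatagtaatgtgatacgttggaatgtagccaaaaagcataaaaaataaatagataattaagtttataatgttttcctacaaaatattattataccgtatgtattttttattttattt
FLS1: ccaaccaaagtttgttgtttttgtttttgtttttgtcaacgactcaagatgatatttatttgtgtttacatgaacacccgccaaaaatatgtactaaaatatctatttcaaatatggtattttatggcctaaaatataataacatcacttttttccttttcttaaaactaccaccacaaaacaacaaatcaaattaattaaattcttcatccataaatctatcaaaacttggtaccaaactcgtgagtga
The CHS window is chr5:4488226-4488475 on the plus strand. The F3H window is chr3:19024942-19025191 on the plus strand. The CHIL window is chr5:1563036-1563285 on the plus strand. The FLS1 window is chr5:2803583-2803832 on the plus strand. A G-box begins 233 bases before the CHS start, 249 before that of F3H and 67 before that of CHIL. CHIL also holds 1 MYB-type element, 110 bases before its start, and the FLS1 window holds neither motif. Of the 9 called flavonoid genes 3 hold a G-box in this window, of all 35 features called lower 8 do (22.9%) and of the 17 called higher 0. Among the 14282 tested protein-coding nuclear genes 1083 do (7.58%), and among all 27443 such genes 1780 (6.49%). The MYB-type element occurred upstream of 4 of the 35 lower features (11.4%), 0 of the 17 higher ones and 5.14% of the genes tested. These matches describe letters and not bound sites. The F3H window also overlaps the antisense RNA gene AT3G51238, and the counting is not stated to use strand.

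On a list of 21 light signalling and greening genes, also drawn up after the values had been seen, 19 were tested, of which 2 were called lower and 0 higher, beside 0.239% and 0.116% of all features. ELIP2, an early light-induced protein that guards chlorophyll under excess light, had 39.4, 48.4, 74.7 and 87.8 CPM in ago5ago9 and 302, 260, 161 and 126 CPM in ago5 (3.403-fold lower, edgeR adjusted p = 0.0107). HYH, the bZIP homologue of the light regulator HY5, stood at 12.2, 14.1, 20.8 and 24.5 CPM against 40.4, 37.3, 33.9 and 29.0 CPM (1.99-fold lower, edgeR adjusted p = 0.0340). HY5 itself overlapped between groups, at a log2 difference of -0.13 (edgeR adjusted p = 0.902). ELIP1, the paralog of ELIP2, ran from 29.8 to 274 CPM in ago5ago9 and from 482 to 946 CPM in ago5. Its log2 fold change of -2.34 did not pass (edgeR adjusted p = 0.0620).

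The feature with the smallest p among those lower was NEET, an iron-sulphur protein of chloroplasts and mitochondria. It had 30.8, 41.4, 23.3 and 31.8 CPM in ago5ago9 and 69.0, 88.7, 74.7 and 76.0 CPM in ago5, and was 2.40-fold lower (edgeR adjusted p = 0.00272). Both myo-inositol phosphate synthases on the called list, MIPS2 and MIPS1, which make the precursor of inositol signals, were lower. MIPS2 went from 45.6 ± 5.08 to 22.3 ± 4.64 CPM and MIPS1 from 193 ± 38.5 to 108 ± 5.93 CPM (SD, n = 4; edgeR adjusted p = 0.0105 and 0.0142). KAT5, a thiolase of fatty acid breakdown, was 2.94-fold lower, at 11.4 to 27.2 CPM in ago5ago9 against 39.5 to 72.2 CPM in ago5 (edgeR adjusted p = 0.0125). ATCAD4, a cinnamyl alcohol dehydrogenase of lignin synthesis, was 1.87-fold lower (edgeR adjusted p = 0.0125).

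The other lower features had varied known roles. KEA3, a potassium antiporter of thylakoids, PnsB3, a subunit of the chloroplast NADH dehydrogenase-like complex, and GBSS1, the starch synthase of granules, were 1.59-, 1.53- and 1.76-fold lower. The vitamin B6 synthesis gene PDX1.1 was 1.68-fold lower and the haem-binding protein gene HBP1 1.81-fold. CYP707A2, which breaks down abscisic acid, was 3.27-fold lower at 1.09 to 1.26 CPM in ago5ago9 against 2.99 to 4.91 CPM in ago5 (edgeR adjusted p = 0.0284). HVA22D, a gene induced by abscisic acid and stress, was 1.59-fold lower (edgeR adjusted p = 0.0478). AT5G62210, annotated as embryo-specific protein, was 3.12-fold lower (edgeR adjusted p = 0.0125). Also called lower were AT3G56290, AT4G27560, AT1G23205, AT5G52450, TPR4, AT2G40430, AT1G73600, scpl10 and MSRB5, between 1.52-fold and 2.73-fold. AT1G73600 was the 1 called feature whose groups overlapped.

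Among the 22 nuclear photosynthesis genes 0 were called, with 2 at an unadjusted p under 0.05 by edgeR and 0 called by DESeq2. Their median log2 fold change was 0.12, and the summed ranges given above overlapped. RBCS1B, a small subunit of Rubisco, had the smallest p of that list, with 812, 696, 1297 and 1841 CPM in ago5ago9 and 3131, 1875, 2576 and 1837 CPM in ago5 (edgeR adjusted p = 0.134). Reads of the near-identical Rubisco small subunit genes may be split between copies.

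Among the 17 features called higher were an auxin carrier, an auxin receptor and a growth regulator, although auxin lists as a whole had few calls. AUX1, the auxin influx carrier, had 51.5, 45.6, 37.4 and 36.5 CPM in ago5ago9 and 23.9, 24.3, 24.8 and 27.3 CPM in ago5, a 1.72-fold rise (edgeR adjusted p = 0.0210). It was the 1 called gene of 16 tested auxin synthesis, transport and ARF genes, whose median log2 fold change was 0.10, while 0.116% of all features were called higher. GRH1, an F-box auxin receptor also named AFB1, had 18.3, 16.8, 14.3 and 16.4 CPM against 7.66, 7.82, 9.39 and 8.65 CPM (1.98-fold higher, edgeR adjusted p = 0.0128). PIF4, a bHLH factor that promotes elongation in shade and warmth, rose from 20.8, 27.9, 25.0 and 23.58 CPM to 49.6, 49.9, 33.5 and 36.5 CPM (edgeR adjusted p = 0.0340), as 1 of 12 tested phytochrome and shade genes, beside the same 0.116%. Each of these 3 genes had its 4 ago5ago9 libraries above all ago5 libraries.

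Genes with products in the cell wall were also among the higher features. EXPA8, an expansin that loosens walls, was the 1 of 18 tested expansin and xyloglucan genes called, beside 0.116% of all features, at 30.7, 42.1, 18.1 and 23.1 CPM in ago5ago9 and 14.2, 9.38, 15.8 and 11.5 CPM in ago5 (2.29-fold higher, edgeR adjusted p = 0.0340). DGR2, a wall-associated protein, rose from 64.5 ± 8.73 to 125 ± 26.6 CPM (SD, n = 4; edgeR adjusted p = 0.0128). AT3G07010, of the pectate lyase family, and AT4G25260, a predicted pectin methylesterase inhibitor, were 1.94-fold and 2.26-fold higher (edgeR adjusted p = 0.0248 and 0.0340). AGP26, an arabinogalactan protein, and TUB5, a beta-tubulin, were 1.71-fold and 1.68-fold higher, both at an edgeR adjusted p of 0.0396. AT1G52190, a nitrate transporter of the NPF family, ran from 16.7 to 38.6 CPM in ago5ago9 and from 7.04 to 13.0 CPM in ago5 (2.76-fold higher, edgeR adjusted p = 0.0128). The remaining higher features with moderate change were AT4G24275, DRT100, AT4G14270 and AGT3, between 1.74-fold and 3.24-fold.

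Several auxin response genes split the 4 ago5ago9 libraries. IAA29, an Aux/IAA repressor gene induced by auxin and by PIF factors, had 17.38, 14.4, 1.79 and 2.43 CPM in ago5ago9 and 0.374, 0.711, 1.28 and 1.73 CPM in ago5. Replicates 1 and 2 of ago5ago9 stood far above the rest, and replicates 3 and 4 just above the ago5 range. It was called by edgeR (adjusted p = 0.0478) but not by limma voom (0.284) or DESeq2 (0.0515), and in 2 of the 8 fits that left out 1 library. Of 29 listed Aux/IAA genes 19 were tested, and IAA29 was the 1 called (0.116% of all features were called higher), with 12 of the 19 above 0 in log2 fold change and 7 below. IAA19 had 27.97, 72.4, 8.24 and 9.33 CPM in ago5ago9 and 1.87, 4.98, 4.48 and 8.22 CPM in ago5 (edgeR adjusted p = 0.0587). HAT2, an auxin-induced HD-ZIP II factor, showed the split most plainly, with 72.9, 71.1, 7.70 and 6.89 CPM in ago5ago9 and 5.42, 4.69, 6.19 and 8.87 CPM in ago5 (edgeR adjusted p = 0.0645). With all 44 libraries in the model both IAA19 and HAT2 were called (edgeR adjusted p = 0.0166 and 0.00551). Neither was called by limma voom (adjusted p = 0.224 and 0.346) or DESeq2 (0.105 and 0.114). Each was called in 2 of the 8 fits that left out 1 library.

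**Figure D3:**
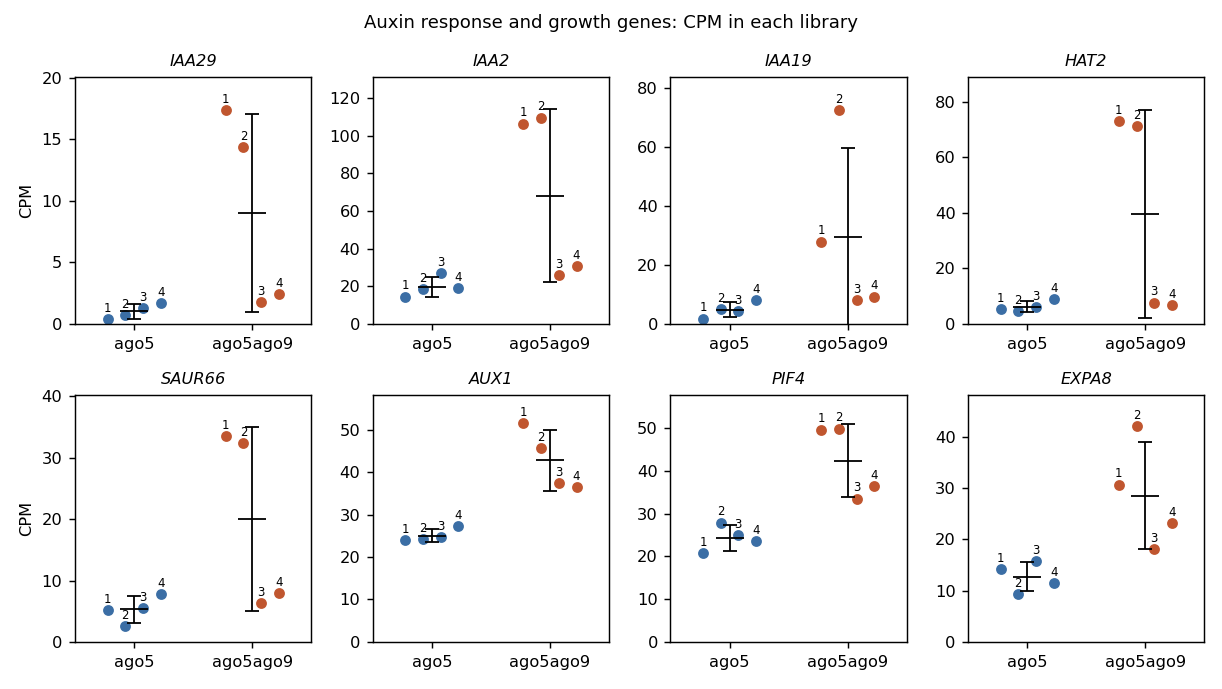
CPM of 8 auxin response and growth genes in each ago5 (blue) and ago5ago9 (orange) library, with replicate numbers and mean ± SD in black; vertical axes start at 0. For IAA29, IAA2, IAA19, HAT2 and SAUR66 replicates 1 and 2 of ago5ago9 lie far above all other libraries. AUX1, PIF4 and EXPA8 lie above every ago5 library in all 4, and so do IAA29 and IAA19. Replicates 1 and 2 are also the highest for AUX1, PIF4 and EXPA8, by a smaller margin.

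SAUR genes, small auxin-induced genes of cell expansion, showed this split as a family. Of 22 listed 12 were tested and 0 were called by edgeR; 11 had an unadjusted p under 0.05, 2 were called by DESeq2, and the median log2 fold change was 1.49. SAUR62, with the smallest p, had 25.9, 19.9, 7.17 and 8.31 CPM in ago5ago9 and 5.23, 4.98, 5.97 and 6.71 CPM in ago5 (edgeR adjusted p = 0.0797). Replicates 1 and 2 of ago5ago9 were the 2 highest of the 8 libraries in 10 of the 12 SAUR genes. The same held in 8 of 19 Aux/IAA, 4 of 5 GH3 and 5 of 7 HD-ZIP II genes, beside 6.46% of all features tested. It was not particular to auxin lists. It held in 7 of 16 brassinosteroid and gibberellin, 4 of 12 phytochrome and shade, 4 of 10 glucosinolate and 2 of 4 heat shock genes. Of the auxin synthesis, transport and ARF genes 3 of 16 showed it, and of the mitotic cell cycle genes 0 of 17. SAUR62 to SAUR67 are close copies, so reads could be split among them.

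The flavonoid genes showed the mirror image in the same libraries. Replicates 1 and 2 of ago5ago9 were the 2 lowest of the 8 libraries in 16 of 28 phenylpropanoid and flavonoid genes, beside 6.85% of all features. Replicates 1 and 2 of ago5 were the 2 highest in 13 of the 28, which held for 766 of the 14664 features tested. The list was drawn up after the values had been seen, and 26 of the 28 genes were lower in ago5ago9. That alone favours both counts, so the shares over all features are not a like baseline and the counts are a description. Organelle share did not set these libraries apart, at 7.76% and 5.23% in ago5ago9 replicates 1 and 2 against 13.4% and 6.68% in replicates 3 and 4, and its part in the split was not tested. The labels give no date or batch by which the libraries could be divided.

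The GH3 list and those of other hormones had 0 edgeR calls. GH3 auxin conjugation genes had 0 of 5 called by edgeR, 3 at an unadjusted p under 0.05 and 2 by DESeq2, and GH3.5 stood at 39.6 ± 16.4 CPM in ago5ago9 and 18.1 ± 5.36 CPM in ago5 (SD, n = 4; edgeR adjusted p = 0.0634). Brassinosteroid and gibberellin genes had 0 of 16 called by edgeR, 8 at an unadjusted p under 0.05 and 3 by DESeq2. GASA6, a gibberellin-induced peptide gene, had 58.8, 52.8, 37.1 and 69.3 CPM in ago5ago9 and 21.1, 25.3, 30.9 and 40.0 CPM in ago5 (edgeR adjusted p = 0.0620). Type-A ARR genes, which report cytokinin, had 0 of 8 called by edgeR, 2 at an unadjusted p under 0.05 and 0 by DESeq2, with ARR8 smallest in p (16.3 ± 5.24 against 23.9 ± 3.63 CPM, SD, n = 4; edgeR adjusted p = 0.287).

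The smallest p of all features was that of AT1G56720, a predicted protein kinase gene on chromosome 1 (TAIR10.1 chr1:21263344-21266469, minus strand). It had 13.0, 12.8, 18.1 and 18.1 CPM in ago5ago9 and 1.87, 1.85, 1.71 and 0.866 CPM in ago5. The groups lay far apart, with a 9.51-fold difference (log2 3.25 ± 0.26, SE; edgeR adjusted p = 7.61e-06). It was the ago5 group that stood apart in the series. Medians in the other 8 groups ran from 7.22 CPM in ddm1 to 15.5 CPM in ago5ago9, with ago4ago5ago9, whose label also includes loss of AGO5, at 11.8 CPM. The difference stayed called in all 8 fits that left out 1 library. Since ago5 was low here and ago4ago5ago9 was not, an effect of losing AGO9 cannot be told apart from a difference at this gene peculiar to the ago5 plants.

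**Figure D4:**
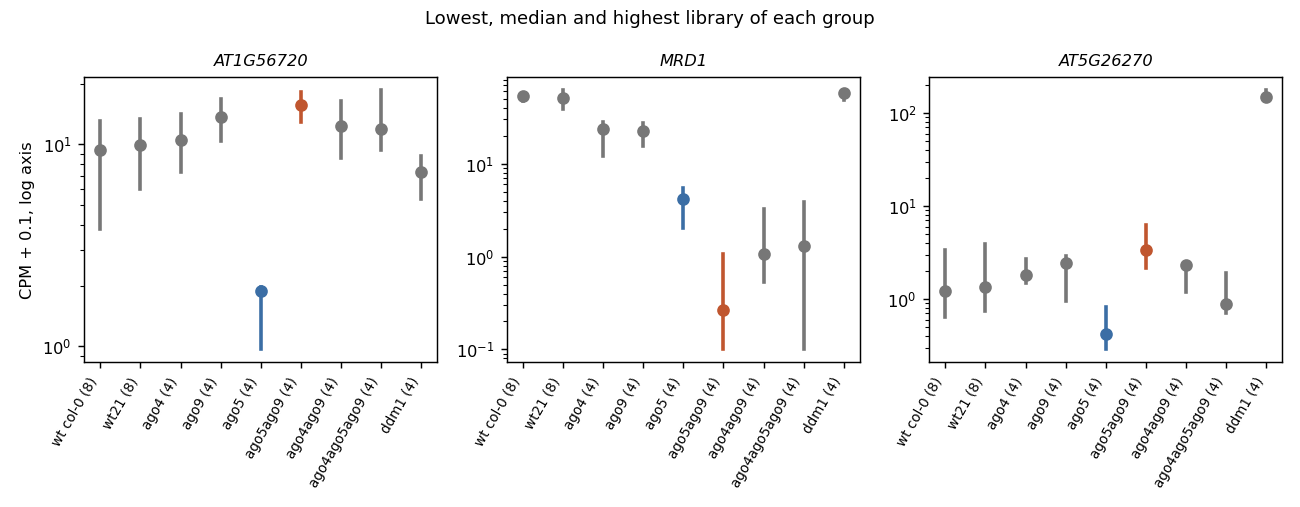
Level of 3 called genes in all 9 groups of the series, as CPM + 0.1 on a log axis; points are group medians, lines run from the lowest to the highest library, and the number of libraries is in parentheses. AT1G56720 is low in ago5 alone, and AT5G26270 is at 0.386 CPM on average in ago5, 3.70 in ago5ago9 and 155 in ddm1. MRD1 has its lowest median in ago5ago9, near the limit of detection, and its range there overlaps those of ago4ago9 and ago4ago5ago9.

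MRD1 (AT1G53480), a gene known to respond to methionine overaccumulation and to DNA methylation, fell further in the double mutant, as the 1 called of 3 tested genes on a list of 7 loci known to follow DNA methylation (0.239% of all features were called lower). It had 0.158, 0.966, 0.179 and 0 CPM in ago5ago9, 10 counts in all, and 5.42, 4.27, 3.84 and 1.95 CPM in ago5, 86 counts in all. Both groups lay far below the 39.1 to 61.95 CPM of the 16 wild-type libraries. The log2 fold change was -3.27 ± 0.56 (SE; edgeR adjusted p = 0.0164), and it was called in 5 of the 8 fits that left out 1 library. The neighbouring element AT1TE93275 had 6.48, 6.52, 9.31 and 12.4 CPM in ago5ago9 and 8.60, 7.11, 7.68 and 5.41 CPM in ago5. It overlapped between the groups (edgeR adjusted p = 0.808), both above the 0.801 CPM that was its highest level in those wild-type libraries. AT5G26270 rose from 0.187, 0.711, 0.213 and 0.433 CPM in ago5, near the limit of detection, to 6.16, 2.05, 3.76 and 2.84 CPM in ago5ago9 (edgeR adjusted p = 0.0128). In ddm1 it stood at 155 ± 14.3 CPM (SD, n = 4).

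Positions were examined by chromosome and around AGO9 only. The 52 called features lay on all 5 nuclear chromosomes, between 8 on chromosome 3 and 12 on chromosome 4. Within 2 Mb of AGO9 lay 1 of them, DGR2, and 3.91% of the features tested. Some called features lay close together, such as MSRB5 (chr4:2445775-2447086) and KEA3 (chr4:2452664-2457767), both lower in ago5ago9. Whether called features cluster was not tested. The transcribed regions of 18 called features overlap another annotated gene, in 17 cases on the opposite strand only. CHS, F3H, RHM1, MRD1 and AT5G26270 are among these, and without strand the reads of such partners cannot be told apart.

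Transposable elements showed no call. Of 97 tested, 0 were called by edgeR, 18 had an unadjusted p under 0.05 (10.5% over all features), the smallest adjusted p was 0.184, and the median log2 fold change was -0.08. They took 0.118% ± 0.0199 of counts in ago5ago9 and 0.133% ± 0.0159 in ago5 (SD, n = 4; two-sided exact permutation p = 0.2, smallest possible 0.0286). Genes of RNA-directed DNA methylation and its maintenance gave 0 calls of 23 tested by edgeR, 3 at an unadjusted p under 0.05 and 0 by DESeq2. IDN2, an RNA-binding factor of that pathway, had the smallest p, at 16.7 ± 2.47 CPM in ago5ago9 against 23.0 ± 3.34 CPM in ago5 (SD, n = 4; edgeR adjusted p = 0.260). The 5 ARGONAUTE genes tested gave 0 calls by edgeR or DESeq2 and none at an unadjusted p under 0.05. AGO1, which acts with microRNAs, stood at 68.1 ± 9.93 and 83.1 ± 13.4 CPM (edgeR adjusted p = 0.507).

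Developmental regulators of the apex gave no call. Of 16 tested shoot meristem and boundary regulators 0 were called by edgeR or DESeq2 and 1 had an unadjusted p under 0.05. KNAT1, a homeobox gene of the meristem, had 7.90, 7.85, 8.42 and 7.30 CPM in ago5ago9 and 4.11, 4.41, 7.90 and 6.06 CPM in ago5 (edgeR adjusted p = 0.449). The same count of 0 by both tools held for 14 leaf polarity genes, with 2 at an unadjusted p under 0.05. REV, an HD-ZIP III factor of the upper leaf side, stood at 20.12 ± 2.16 CPM against 14.7 ± 1.49 CPM without overlap (SD, n = 4; edgeR adjusted p = 0.226). Flowering time genes gave 0 of 11 by both tools and none at an unadjusted p under 0.05. Among them SOC1, a floral integrator, ran from 3.16 to 10.8 CPM in ago5ago9 and from 1.28 to 5.63 CPM in ago5 (edgeR adjusted p = 0.540), and MAF3, a floral repressor, from 5.19 to 6.99 and from 5.23 to 12.8 CPM. Mitotic cell cycle genes gave 0 of 17 by both tools and 1 at an unadjusted p under 0.05, with CYCD3;3 smallest in p (21.3 ± 3.09 against 17.0 ± 0.998 CPM, SD, n = 4; edgeR adjusted p = 0.420).

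Clock and stress lists were also without edgeR calls. Clock genes had 0 of 16 called, 6 at an unadjusted p under 0.05 and 1 called by DESeq2, GRP7, a clock-controlled RNA-binding protein gene that had 118, 139, 149 and 177 CPM in ago5ago9 and 265, 229, 211 and 186 CPM in ago5 (edgeR adjusted p = 0.0865). Heat shock genes (4 tested), touch, wound and cold genes (6), salicylic acid defence genes (6), the 1 tested phosphate starvation gene, glucosinolate genes (10) and vascular, guard cell and trichome markers (7) gave 0 calls by edgeR and by DESeq2. An unadjusted p under 0.05 was found for 4 glucosinolate genes, 1 heat shock gene, 1 touch, wound and cold gene and 1 of the vascular, guard cell and trichome markers. Those with the smallest p were HSP101 (4.52 against 3.01 CPM), XTH22 (20.8 against 14.6), PAD4 (1.18 against 2.25), SQD2 (7.83 against 10.4), ESM1 (39.8 against 55.7) and IRX3 (4.14 against 2.36), as group means. Summed vascular, guard cell and trichome markers ran from 49.3 to 59.9 CPM in ago5ago9 and from 50.1 to 60.4 CPM in ago5.

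Levels in the 16 wild-type libraries are given in all and separately for replicate numbers 1 to 4 and 5 to 8 (8 libraries each), a division made after the values had been seen, for which the labels give no batch. For the 17 higher features the ago5ago9 mean lay above the range of all 16 wild-type libraries in 14, while the ago5 mean lay within it in 15. For the 35 lower features the ago5ago9 mean lay below that range in 18 and within it in 17, while the ago5 mean lay within it in 33. Against replicates 1 to 4 alone the ago5 mean of the lower features lay within the range in 28, above it in 6 and below it in 1. Against replicates 5 to 8 alone it lay below the range in 23, within it in 8 and above it in 4, and the ago5ago9 mean lay below it in 33. These features were chosen for their difference between ago5ago9 and ago5. No share over all features tested was computed for these ranges, so the counts are a description. FLS1 ran from 22.4 to 74.8 CPM in wild-type replicates 1 to 4, which takes in all 4 ago5 libraries, and from 109.9 to 149 CPM in replicates 5 to 8, above all of them. F3H likewise ran from 38.8 to 235 CPM and from 232 to 258 CPM, and its 4 ago5 libraries fell inside the first range and below the second.

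Most features called when loss of AGO9 was added to loss of AGO4 were transposable elements. In ago4ago9 against ago4, which share no library with ago5ago9 and ago5, 13 of 15092 features were called (0.0861%), 10 higher and 3 lower. Transposable elements were 11 of the 13, out of 121 tested. The count was 12 to 16 when 1 library was left out, so its order against the 52 of the ago5 background turns where that count falls to 3 (without ago5 replicate 1) or 10 (without ago5ago9 replicate 1), and with all 44 libraries in the model the counts were 13 and 17. Of the 52 features called in the ago5 background 51 were tested there. The direction was the same in 9 and opposite in 42, and 1 was called in both, which is 1.92% of the calls in the ago5 background and 7.69% of those in the ago4 background. This was MRD1, at 1.37 ± 1.20 CPM in ago4ago9 and 21.7 ± 7.30 CPM in ago4 (SD, n = 4; edgeR adjusted p = 0.000244). No other of the 51 was called in the ago4 background. The share of opposite signs over all features tested was not computed, so the count of signs is a description and not a test of a reversed response. The 35 lower features had a median log2 fold change of -1.09 in the ago5 background and 0.28 in the ago4 background, and the higher ones of 1.11 and -0.14. CHS stood at 327 ± 109 CPM in ago4ago9 and 263 ± 140 CPM in ago4 (SD, n = 4; edgeR adjusted p = 0.997).

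**Figure D5:**
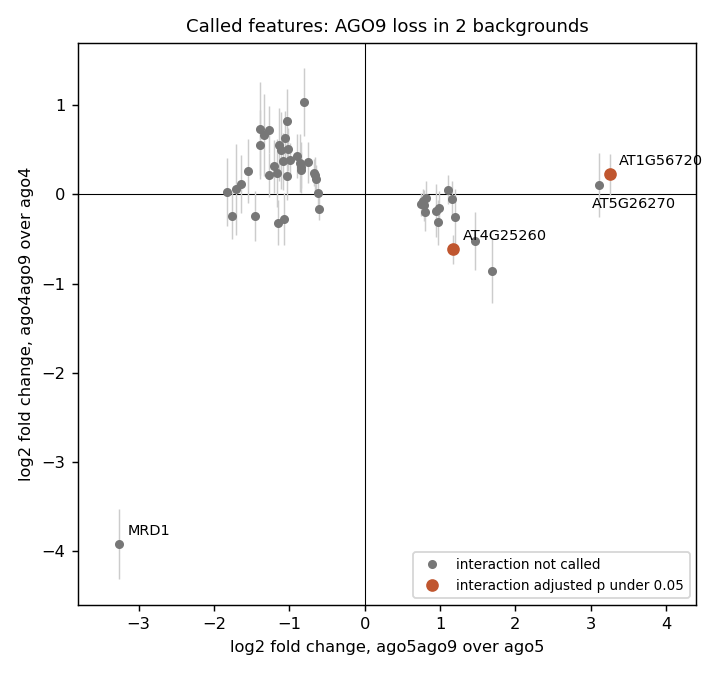
Each point is 1 of 51 features called in ago5ago9 against ago5, with its log2 fold change there on the horizontal axis and its log2 fold change in ago4ago9 against ago4 on the vertical axis (grey lines, ± SE); orange points are those whose change differed between backgrounds at an edgeR adjusted p under 0.05. MRD1 is low in both, while 42 points lie in quadrants of opposite sign. Apart from MRD1 no change on the vertical axis was called.

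The difference between the backgrounds was itself tested over these 16 libraries. It was called for 4 of 15750 features (0.0254%): AT1G56720, AT4G25260, ROS1 and AT2G30150, with 1484 at an unadjusted p under 0.05 and 68 called by DESeq2. For AT4G25260 the log2 fold change was 1.18 in the ago5 background and -0.61 in the ago4 background (difference 1.79 ± 0.30, SE; edgeR adjusted p = 0.0273). ROS1, a DNA demethylase whose transcript is known to depend on DNA methylation, had 10.1, 9.78, 14.2 and 12.8 CPM in ago5ago9 and 12.9, 9.67, 16.2 and 14.5 CPM in ago5, which overlapped. In the ago4 background it stood at 1.16 to 3.16 CPM in ago4ago9 and at 0 to 0.453 CPM in ago4 (difference of log2 fold changes -3.53 ± 0.56, SE; edgeR adjusted p = 0.0238). AT2G30150, a UDP-glycosyltransferase gene, had 6.93 ± 1.19 CPM in ago5ago9 and 11.96 ± 0.583 CPM in ago5 but 13.1 ± 1.27 CPM in ago4ago9 and 8.28 ± 2.01 CPM in ago4 (SD, n = 4; edgeR adjusted p = 0.0273). AT1G56720 stayed called in all 16 fits that left out 1 library, ROS1 in 10, AT4G25260 in 8 and AT2G30150 in 5. Their count was 1 without ago4ago9 replicate 3, ago4 replicate 1, ago4 replicate 3, ago5ago9 replicate 2 or ago5 replicate 4, and 2 without ago4ago9 replicate 2 or ago5 replicate 2. It was 8 without ago5 replicate 3, 13 without ago5ago9 replicate 3 and 140 without ago4 replicate 4. For the flavonoid genes the difference did not pass, with F3H at -2.00 ± 0.60 and CHS at -1.52 ± 0.43 on the log2 scale (SE; edgeR adjusted p = 0.238 and 0.214). None of 144 transposable elements passed (0 by edgeR, 20 at an unadjusted p under 0.05). Of the elements called in the ago4 background, AT1TE14315, AT1TE44720, AT3TE51930 and AT4TE44990 had 0 counts in ago5ago9 and in ago5. For such silent elements the test could hardly pass. It therefore does not show that elements change alike in both backgrounds.

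Spread within the groups was alike. Over 10710 features with at least 5 CPM the median SD of log2 CPM was 0.23 in ago5ago9 and 0.22 in ago5, and 84 and 75 features exceeded 1. The 10 features with the largest SD in ago5ago9 were each at or near 0 in some libraries and far above 0 in others. AT1G24881 had 46.2, 0, 52.1 and 50.3 CPM in ago5ago9 and 41.4 to 49.1 CPM in ago5. The pair AT5G45428 and AT5G45430 alternated, at 20.2, 0, 0 and 21.1 CPM for the first and 0.316, 25.0, 25.1 and 0 CPM for the second. AT5G01712 and AT5G01710 alternated likewise. The others were AT1G58983, AT5G61228, AT5G09462, AT1G64140 and AT5G49448. How reads were divided between neighbouring features or copies is not stated, so these values are uncertain.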

How the data were processed

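The deposited table holds estimated counts per gene and transposable element, made by the authors, with 1 column per library and no pooling. The aligner, the counter and the use of strand or molecular identifiers are not given in the sources used here. The submitters' processing notes name TAIR10 and DESeq2 without a role. Fractional values made up 6.26% of those above 0, and all were rounded before testing. The 2 reporter sequences were left out of totals and tests.

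The 4 ago5ago9 and 4 ago5 libraries alone were fitted with edgeR 4.0.16 (quasi-likelihood test, TMM, filterByExpr by group), so that the spread came from the groups compared, and p-values were adjusted by Benjamini and Hochberg over all 14664 features tested. Features with an adjusted p under 0.05 were called. The ago4ago9 and ago4 groups were fitted likewise, and the difference between backgrounds over the 16 libraries together. CPM values use TMM factors of all 44 libraries, each SE is the log2 fold change divided by the root of its F value, and shares were compared by exact permutation over 70 splits. Counting-error limits (a floor of 3 counts) cover counting error only. Limma 3.58.1 (voom) and DESeq2 1.42.0 served as alternatives, run in R 4.3.3. The scripts were tested on simulated data.

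The lists and tests were chosen with earlier results of these data known. Genes named are AGO4, AGO5, AGO9 and DDM1, all called features (a fixed rule took the 15 with the smallest p in each direction, and the others were added after their values were seen), list members called or, where none was, the member with the smallest p, the 10 features with the largest spread, the features called for the difference between backgrounds, and AT1TE93275, MRD1, IAA19, HAT2, ESM1 and SOC1. IAA2, SAUR66, DFR, UGT78D2, 5MAT, MYB111, TTG1, ELIP1, HY5 and the 2 flavonoid and light lists were chosen after their values were seen. Gene names and positions come from RefSeq TAIR10.1, which matched 28929 of 29696 genes, and sequences from its genome. Summaries used Python 3.11.15.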

Additional observations from a re-analysis of the deposited data

Results flagged for a closer look

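AT1G56720 stood at 0.865 CPM in ago5 replicate 4, below the 1.71 to 1.87 CPM of the other 3 ago5 libraries, a gap wide for a group of 4. The ribosomal RNA gene AT3G41768 took 12.8% of counts in ago5ago9 replicate 3, against 4.55% to 5.35% in the other 3. These were 2 of 122 groups of 4 libraries examined in this way, and chance alone sets apart about 1 in 20.

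A total of 4 features changed differently with loss of AGO9 in the ago5 and in the ago4 background, by edgeR's test of the difference. The difference of log2 fold changes was 3.02 for AT1G56720, 1.79 for AT4G25260, -3.53 for ROS1 and -1.46 for AT2G30150.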

How the results depend on the processing

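The 52 calls of ago5ago9 against ago5 kept their direction in every alternative that tested them, but their number varied. It was 17 with all 44 libraries in the model (12 higher, 5 lower) and 16 with the 28 mutant libraries (12 higher, 4 lower). With DESeq2 it was 136 (48 higher, 88 lower) and without a filter on low counts 218 (108 higher, 110 lower). Lower calls outnumbered higher ones in the main fit (17 higher, 35 lower) but not with all 44 or with the 28 mutant libraries. The order also turned without ago5ago9 replicate 3 (75 higher, 64 lower), and in no other fit that left out 1 library. Leaving out 1 library gave 3 to 139, with ago5 replicate 1 and ago5ago9 replicate 3 at the ends. Alternatives chosen after seeing the data gave 114 without replicate 3 of both groups (67 higher, 47 lower). They gave 17 with wild-type replicates 1 to 4, ago4 and ago4ago9 also in the model (12 higher, 5 lower). Of the 52, 46 were called by edgeR, limma voom and DESeq2 alike, 9 also passed with all 44 libraries, and 25 passed in at least 4 of the 8 fits that left out 1 library. Same-numbered libraries deviated together weakly (correlations of 0.0258, 0.138, 0.184 and 0.00924 for replicates 1 to 4). Replicates 2 and 3 of ago5ago9 correlated best with their own number, and replicates 1 and 4 did not. These values do not settle whether the numbers pair the samples, and the labels name no pairing. A replicate block gave 132 calls, among them all 52 of the main fit.

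For ago4ago9 against ago4 the count of 13 became 38 without a filter. For the difference between backgrounds the 4 calls became 68 with DESeq2, 102 without a filter and 1 to 140 when 1 library was left out. Leaving out 1 library moved the difference in organelle share (ago5ago9 minus ago5, percentage points) from -0.8914 to 2.007 and that of AT3G41768 from -0.2192 to 2.521. The cause of these shifts was not tested. Depth limits AGO9 and AGO5, with 0 to 8 counts in these 8 libraries.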

Other observations

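The deposited table also counts 2 reporter sequences. The mCherry sequence had 13 counts over the 4 ago5ago9 libraries, 8 over the 4 ago5 libraries, 34 over the wt21 libraries, 0 over the wt col-0 libraries and 152 over the whole series. The Clover sequence had 0 counts in all 44 libraries.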
